A study of Homo sapiens with 6 samples.

Results

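The red cell membrane genes described here are the glycophorin genes GYPB, GYPC and GYPE, the skeleton genes ANK1, SPTB, EPB41 and EPB42, and KEL. They were chosen by name, through their Entrez identifiers, and all 8 were found among the 12486 genes of the expression table and passed the filter on low values. In the mature red cell, spectrin forms a flexible net under the membrane, and ankyrin and the EPB41 protein tie that net to transmembrane proteins. Glycophorins are short transmembrane proteins rich in sialic acid that carry blood group antigens, and GYPC also anchors the EPB41 protein. These genes are switched on during erythroid differentiation, and inherited defects in the skeleton genes cause spherocytosis or elliptocytosis.

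RNA-seq was performed on K562, a human chronic myeloid leukemia line that carries Bcr-Abl and expresses erythroid genes. One group of 3 libraries came from cells with a control shRNA against luciferase (sh-luc), and the other group of 3 from cells with an shRNA against lncRNA-IUR1 (sh-IUR1), which the sample labels call lncRNA-up91. Both groups were made by stable lentiviral infection, no drug treatment is given in the labels, and the methods describe 3 independent groups of cells. The level of the targeted RNA in these libraries was not analysed here. In each group 1 library has no replicate number, and the other libraries are numbered 1 and 2. The comparison asks whether the membrane genes differ between the groups.

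Markers of the K562 line and of other cell types were checked first. All 8 erythroid markers were in the table, and HBG2, a fetal globin gene, was the most abundant at 2559 to 3565 FPKM (fragments scaled to transcript length and sequencing depth). Of the lymphoid markers, 5 of 7 were listed and summed to 4.49 to 6.39 FPKM per library, with CD3D the most abundant and CD3G at 0 in 2 libraries. Megakaryocyte markers (2 of 5 listed) summed to 1.96 to 2.70 FPKM, led by ITGA2B. This sum depends on the markers listed, since the platelet gene GP1BB, not listed and named after its value was seen, averaged 100 FPKM with overlapping groups. COL1A1 was the only stromal marker listed (1 of 4), at 0.21 to 0.37 FPKM. Monocyte and granulocyte markers (2 of 6 listed) summed to 107 to 119 FPKM, nearly all of it from LYZ, whose ranges overlapped between the groups.

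One library stood apart from the rest. Along the first principal component (59.3% of the variance), the score of the unnumbered sh-luc library was -19.8, against -3.75 to 13.0 in the other libraries. The same library had the lowest summed level of 18 genes of the amino acid and integrated stress response, 1264 FPKM against 2046 to 2706 FPKM elsewhere. The summed erythroid markers, most of it HBG2 and HBG1, were highest in it, 6481 FPKM against 4883 to 5529 FPKM elsewhere. Of these 8 markers 5 were highest there, and HBZ, EPOR and ALAS2 were highest in other libraries. Fold changes of the members and medians of the lists are given with and without this library, and its part in the values of the members was otherwise not tested.

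The membrane genes were expressed at very different levels. GYPC was the highest by far, and its lowest library (249 FPKM) lay above the highest library of any other member. ANK1, GYPB, EPB41 and GYPE followed with means of 57.9, 53.7, 49.2 and 44.1 FPKM, and the ranges of neighbours in this order overlapped. GYPB was above EPB41 in only 2 of 6 libraries, the unnumbered and second sh-luc libraries. SPTB (mean 24.0 FPKM) and KEL (mean 18.0 FPKM) came next with overlapping ranges, although SPTB was the higher of the pair in 6 of 6 libraries. EPB42 was barely detected, with a mean of 0.218 FPKM. FPKM is scaled to length, so levels can be compared between genes, as the plot of FPKM by library shows.

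**Figure D1:**
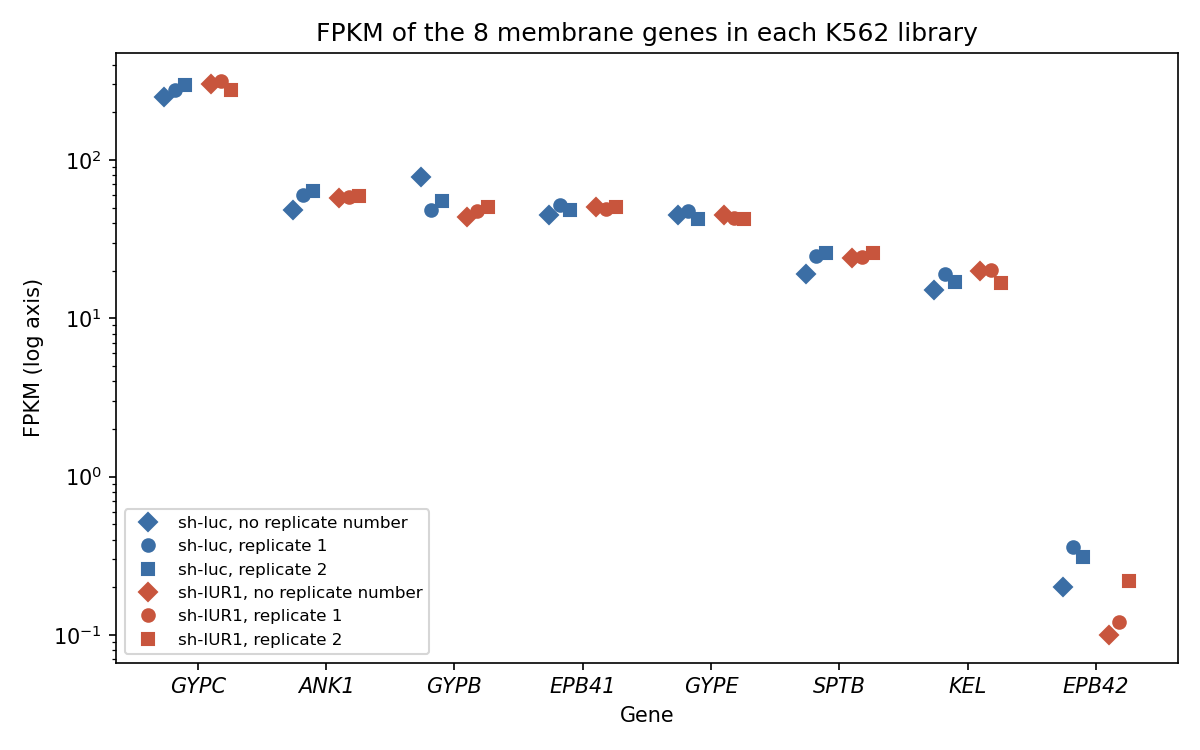
FPKM of each gene (log axis) in the 6 libraries, 1 point per library, with blue points for sh-luc, red points for sh-IUR1 and diamonds for the libraries without a replicate number. GYPC lies highest at 249 to 316 FPKM and EPB42 lowest at 0.10 to 0.36 FPKM, and the groups overlap for every gene.

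No member passed the test between the groups. With limma and Benjamini-Hochberg adjustment over all genes, 0 of the 8 members and 0 (0%) of 12276 genes were called at an adjusted p under 0.05. At an unadjusted p under 0.05 there were 0 members, beside 2.65% of all genes (1.65% higher and 0.994% lower in sh-IUR1). For 0 members were the groups without overlap, beside 7.07% of all genes. On log2(FPKM + 1), 5 members were higher and 3 lower in sh-IUR1, with a median difference of 0.039, where the median over all genes was 0.019 and 58.0% of genes were higher. The direction of this median was not stable: it was -0.037 without the unnumbered sh-luc library and -0.0030 with a correction for GC content and length chosen after seeing the data. These p-values measure the spread between these libraries, and a two-sided exact permutation test of 3 against 3 libraries cannot give a p under 0.1. In bulk RNA, fewer cells expressing a gene and less RNA per cell cannot be told apart.

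**Figure D2:**
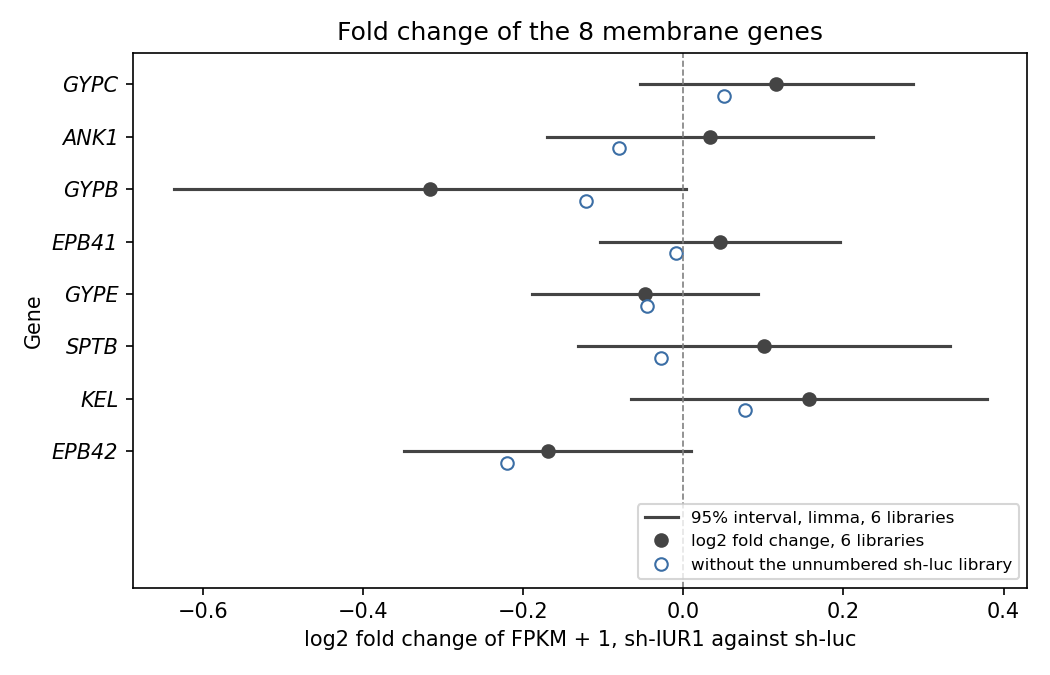
Log2 fold change of FPKM + 1 in sh-IUR1 against sh-luc for the 8 genes (filled points, 6 libraries) with 95% intervals from limma, and the value without the unnumbered sh-luc library (open points). Every interval includes 0, and the points of ANK1, SPTB and EPB41 move to the other side of 0 without that library.

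Among the glycophorins, GYPB varied most. It encodes glycophorin B, which carries the S and s antigens of the MNS system. GYPB measured 77.5, 48.3 and 54.6 FPKM in the unnumbered, first and second sh-luc libraries, and 43.8, 47.5 and 50.2 FPKM in the unnumbered, first and second sh-IUR1 libraries. The unnumbered sh-luc library was the highest, and the other 5 libraries ran from 43.8 to 54.6 FPKM. The group means were 60.1 ± 15.3 FPKM in sh-luc and 47.2 ± 3.21 FPKM in sh-IUR1 (SD, n = 3 each). The log2 fold change was -0.32 (SE 0.14, 95% interval -0.64 to 0.0033, adjusted p = 0.930 in limma; exact permutation p = 0.2). It was -0.12 with the unnumbered sh-luc library left out and -0.46 with sh-luc replicate 1 left out.

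GYPE, a paralog of GYPB on the same arm of chromosome 4, varied less. Its values were 45.0, 47.2 and 42.5 FPKM in sh-luc and 45.0, 42.8 and 42.4 FPKM in sh-IUR1, in the same order of libraries. The log2 fold change was -0.048 (SE 0.063, 95% interval -0.19 to 0.093). It ran from -0.011 without sh-luc replicate 1 to -0.086 without sh-luc replicate 2, and was -0.046 without the unnumbered library of that group. The coefficient of variation over the 6 libraries was 4.36% for GYPE and 22.7% for GYPB. Of 10632 genes averaging 1 FPKM or more, 83.9% varied as much as GYPE or more, and 2.89% as much as GYPB or more. Without the unnumbered sh-luc library the coefficient of variation of GYPB was 8.06%, which 30.4% of these genes reached, and that of GYPE was 4.78%, which 66.4% reached. The GYPB to GYPE ratio of FPKM was 1.72 in the unnumbered sh-luc library and 0.975 to 1.29 in the other libraries, and Pearson's r of the 2 genes was 0.039 over 6 libraries and -0.48 without that library.

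The promoters of the pair are nearly the same, and they are printed here with those of the members with the highest and the lowest level. Each line holds the 250 bases before 1 annotated start of transcription in RefSeq (GRCh38.p14), and capitals mark the GATA words AGATAA or TGATAA and also AGATAG or TGATAG on either strand.
GYPB, chr4:144019346-144019595, minus strand: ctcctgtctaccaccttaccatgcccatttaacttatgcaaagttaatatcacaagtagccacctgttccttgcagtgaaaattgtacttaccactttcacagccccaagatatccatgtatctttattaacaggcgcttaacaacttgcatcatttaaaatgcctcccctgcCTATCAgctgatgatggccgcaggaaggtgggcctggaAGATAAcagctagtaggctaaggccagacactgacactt
GYPE, chr4:143905560-143905809, minus strand: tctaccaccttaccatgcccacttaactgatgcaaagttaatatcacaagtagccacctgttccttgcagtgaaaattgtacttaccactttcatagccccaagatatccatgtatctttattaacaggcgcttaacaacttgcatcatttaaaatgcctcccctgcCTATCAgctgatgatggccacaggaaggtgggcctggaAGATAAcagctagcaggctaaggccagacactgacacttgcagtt
GYPC, chr2:126655908-126656157, plus strand: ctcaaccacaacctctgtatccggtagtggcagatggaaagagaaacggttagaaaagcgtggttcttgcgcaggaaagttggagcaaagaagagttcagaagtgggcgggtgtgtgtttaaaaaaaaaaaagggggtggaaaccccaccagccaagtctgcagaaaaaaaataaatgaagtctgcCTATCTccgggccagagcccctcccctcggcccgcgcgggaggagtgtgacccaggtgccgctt
EPB42, chr15:43221019-43221268, minus strand: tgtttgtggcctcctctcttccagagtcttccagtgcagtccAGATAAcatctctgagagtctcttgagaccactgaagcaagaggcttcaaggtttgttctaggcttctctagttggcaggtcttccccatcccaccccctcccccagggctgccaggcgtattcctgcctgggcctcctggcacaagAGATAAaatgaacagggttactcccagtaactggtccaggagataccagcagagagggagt

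GYPB has 2 annotated starts with a window, and the line shown is the one that aligns with GYPE over more bases. It reaches 35 bases into the RefSeq span of GYPB, which ends at position 144019380. The EPB42 line lies inside the RefSeq span of that gene, which ends at position 43225737.

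Over 244 aligned bases, GYPB and GYPE differed at 5 (98.0% identity). Counted from 1 at the upstream end of the GYPB line, with the GYPB base first, the differences were T28C, T35G, C101T, G193A and T225C, and 0 of them fell in a GATA word. Both promoters hold TGATAG on the opposite strand and AGATAA on the coding strand. In the GYPB line these words start at positions -77 and -39 relative to the start used for that line, or -42 and -4 relative to the other annotated start. In the GYPE line they start at -83 and -45. EPB42, at under 1 FPKM, has AGATAA at -208 and -61, and GYPC, the most abundant member, has 1 word, AGATAG on the opposite strand at -64.

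Promoter windows of 300 bases, reaching 50 bases past the start, were found for 7 of the 8 members, and all 7 held a GATA word in at least 1 window. The same was true of 29.1% of the 27305 genes with a window, and of 20% of the 10088 genes of the expression table that have one. For the CACCC word CCACACCC the count was 0 of 7 members against 4% of genes with a window and 4.37% of those in the expression table. For the GC box CCGCCCC it was 2 of 7 against 34.4% and 57.1%. The E box CAGCTG was found in 3 of 7 members against 21.1% and 22.4%, and in GYPB and GYPE it shares bases with the TGATAG word. All words were searched on both strands. A match describes letters in a window, and binding was not measured.

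Reads from stretches shared with other genes could be assigned to either gene, and GYPB FPKM is uncertain to that extent more than GYPE FPKM. Of the 50-base stretches of the canonical GYPB transcript (564 bases, 5 exons), 26.8% also occur in transcripts of other genes, and only 4.27% in those of GYPE, so most of this sharing is not with GYPE. For the canonical GYPE transcript (1687 bases, 4 exons) the share was 1.04%, all of which is also found in GYPB. At 100 bases the shares with other genes were 14.2% for GYPB and 0% for GYPE, and between GYPB and GYPE 0% in both directions. EPB42 has such stretches too, with shares in other genes of 17.3% at 50 bases and 15.5% at 100 bases. In the RefSeq annotation GYPB spans chr4:143995188-144019380 and GYPE chr4:143870864-143905559, both on the minus strand.

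GYPC, on chromosome 2 (chr2:126656158-126696667, plus strand), encodes glycophorins C and D, which carry the Gerbich antigens. It is not a sequence paralog of the pair, and 0% of its 50-base stretches occurred in other genes. GYPC measured 249, 277 and 295 FPKM in sh-luc and 299, 316 and 274 FPKM in sh-IUR1. The lowest value was in the unnumbered sh-luc library and the groups overlapped. The means were 273.8 ± 23.02 and 296.6 ± 21.0 FPKM (SD, n = 3 each), a log2 fold change of 0.12 (SE 0.076, 95% interval -0.055 to 0.29; exact permutation p = 0.3). With the unnumbered sh-luc library left out, it was 0.051.

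The skeleton genes ANK1 and SPTB, which encode erythroid ankyrin and beta spectrin, had the most similar patterns of all member pairs (Pearson's r = 0.965 over the 6 libraries). Without the unnumbered sh-luc library r was 0.738. ANK1 measured 48.6, 59.9 and 63.6 FPKM in sh-luc and 57.5, 58.3 and 59.3 FPKM in sh-IUR1. SPTB measured 19.1, 24.8 and 25.9 FPKM in sh-luc and 24.0, 24.5 and 25.9 FPKM in sh-IUR1. Both were lowest in the unnumbered sh-luc library, and the sh-IUR1 libraries lay within or at the edge of the sh-luc range. The log2 fold changes were 0.033 for ANK1 (SE 0.091, 95% interval -0.17 to 0.24) and 0.10 for SPTB (SE 0.10, 95% interval -0.13 to 0.33). They turned to -0.080 and -0.028 without the unnumbered sh-luc library. ANK1 FPKM was 2.41 times SPTB FPKM over the 6 libraries.

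EPB41, which encodes the protein that joins spectrin to actin and to glycophorin C, was the steadiest skeleton gene. It measured 44.8, 52.1 and 48.4 FPKM in sh-luc and 50.2, 49.2 and 50.3 FPKM in sh-IUR1. The spread was larger in sh-luc (SD 3.69 FPKM, n = 3) than in sh-IUR1 (SD 0.612 FPKM, n = 3), with the lowest value again in the unnumbered sh-luc library. The log2 fold change was 0.045 (SE 0.067, 95% interval -0.10 to 0.20) and became -0.0089 without that library. GYPC FPKM was 5.80 times that of EPB41.

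EPB42 encodes a protein that stabilizes the contact between ankyrin and the membrane. It measured 0.20, 0.36 and 0.31 FPKM in sh-luc and 0.10, 0.12 and 0.22 FPKM in sh-IUR1. The sh-IUR1 mean was 0.506 times that of sh-luc, and the groups overlapped, since 1 sh-IUR1 library (0.22 FPKM) lay above the unnumbered sh-luc library (0.20 FPKM). The log2 fold change was -0.17 (SE 0.080, 95% interval -0.35 to 0.0098; exact permutation p = 0.2), which understates the ratio at this level, and with a pseudocount of 0.1 FPKM it was -0.67. Without the unnumbered sh-luc library the log2 fold change was -0.22 (adjusted p = 0.9997 in limma, 0.681 to 0.9997 over all alternatives). Of the 12276 genes tested, 221 were then at an unadjusted p under 0.05 in limma, EPB42 among them. With all 6 libraries 325 genes were, and EPB42 was not among them. Low values of short transcripts were used for a rough estimate of 1 fragment. Within a chosen narrow range, their medians were about 0.050 to 0.056 FPKM times kilobases per library. These medians rest on 28 to 41 values per library and depend in part on the range chosen. On that scale, and with the canonical transcript of 2344 bases, the EPB42 values stand for about 4 to 15 fragments, and what difference could be resolved at this depth was not tested. The same estimate gives about 456 to 779 fragments for GYPB.

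KEL encodes the Kell blood group protein, a membrane endopeptidase. It measured 15.0, 18.9 and 16.95 FPKM in sh-luc and 20, 20.2 and 16.8 FPKM in sh-IUR1. In sh-IUR1, 2 libraries lay above all sh-luc libraries and 1 lay within their range. The log2 fold change was 0.16 (SE 0.10, 95% interval -0.066 to 0.38; exact permutation p = 0.3). It was 0.077 with the unnumbered sh-luc library left out and 0.24 with sh-IUR1 replicate 2 left out.

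The unnumbered sh-luc library recurred across the members. It was the lowest library for 5 (GYPC, ANK1, EPB41, SPTB and KEL) of the 7 members averaging 1 FPKM or more, beside 39.1% of all genes at that level. GYPB was highest there, as were 25.4% of genes. GYPB and EPB41 were the most opposed pair (Pearson's r = -0.892 over the 6 libraries, -0.436 without this library), as the plot of deviations by library shows. Without this library 2 members were higher and 6 lower in sh-IUR1, with a median of -0.037 beside 0.0047 for all genes.

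**Figure D3:**
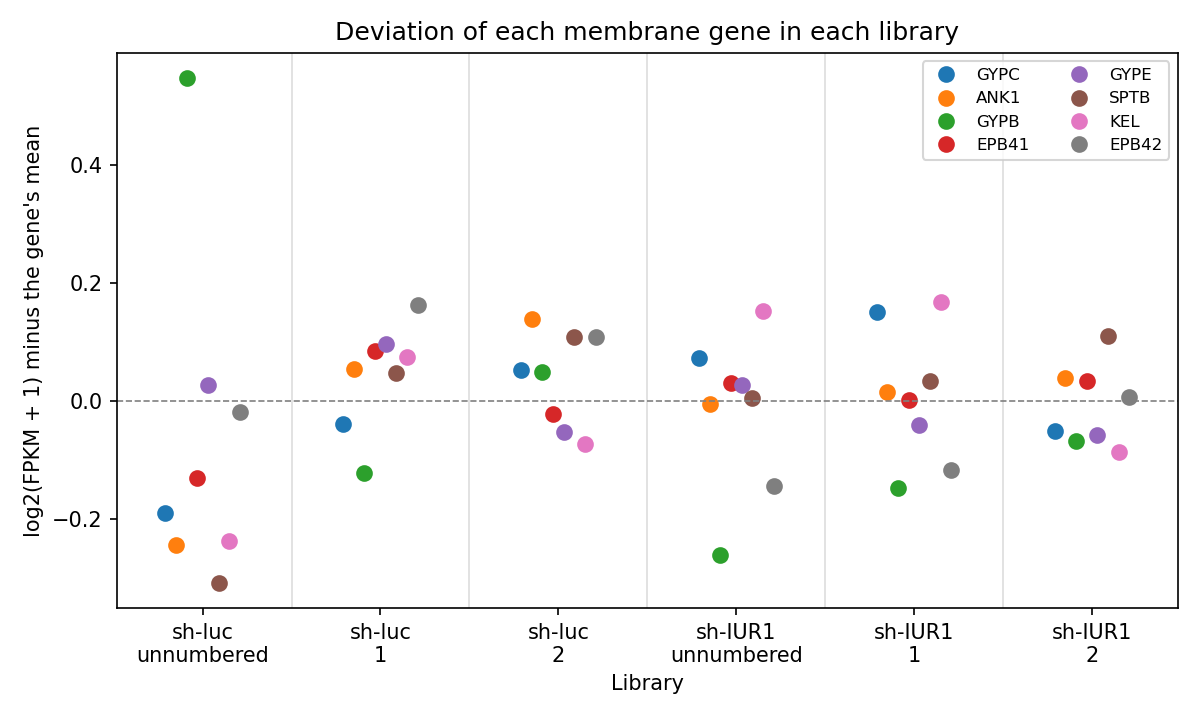
Deviation of log2(FPKM + 1) from each gene's mean over the 6 libraries, 1 colour per gene, by library. In the unnumbered sh-luc library GYPB stands at 0.55 and SPTB at -0.31, and GYPE stays within 0.097 of 0 in all libraries.

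Transcript length moved with the deviation of some libraries. Lengths were available for 12109 genes (97.0%), including all members. In the unnumbered sh-luc library the median deviation was 0.070 (log2) for 697 genes with canonical transcripts of up to 1000 bases and -0.047 for 1786 genes with transcripts over 6000 bases. In sh-IUR1 replicate 2 the trend was opposite and of similar size, from -0.042 to 0.048. GYPB is the shortest member transcript, and SPTB (10177 bases), ANK1 (8292 bases) and EPB41 (6031 bases) are the longest. GYPB lay much further out than its length class, since 0.430% of those 697 genes deviated upward by as much. For SPTB, ANK1 and EPB41, 6.61%, 11.8% and 30.9% of their class deviated downward by as much. After the correction for length and GC content, GYPB measured 70.4, 49.2 and 56.4 FPKM in sh-luc and 43.6, 48.9 and 51.3 FPKM in sh-IUR1. Its log2 fold change was then -0.27 (adjusted p = 0.822 in limma, 0.667 to 0.9997 over all alternatives), and that of ANK1 turned to -0.021.

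The genes with the most similar pattern to each member over the 6 libraries were sought among 8203 genes averaging 5 FPKM or more. For GYPB they were RPS26 (r = 0.995, 1140 bases) and COA4 (r = 0.995, 818 bases), both highest in the unnumbered sh-luc library. For SPTB they were BLTP2 (r = 0.9999) and BCR (r = 0.997), and for EPB41 GON4L (r = 0.9997) and KDM3B (r = 0.996), with transcripts of 6724 to 7745 bases for these 4 genes. The nearest to ANK1 were WDR4 (r = 0.996) and MAFF (r = 0.991), whose transcripts of 2106 and 2374 bases are much shorter than that of ANK1. To KEL they were ENOSF1 (r = 0.996, 5362 bases) and MBTPS2 (r = 0.995, 4446 bases). GYPC was closest to IMPDH2 (r = 0.998, 1651 bases) and ICAM4 (r = 0.995, 1290 bases), the carrier of the Landsteiner-Wiener antigen, at 27.9 to 43.0 FPKM. GYPE had the weakest matches, ZCCHC10 (r = 0.970, 2189 bases) and an unnamed gene (r = 0.968). With 6 points, values of r this high were found for most members, and they describe these libraries only.

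Some member exons lie across exons of other genes, and whether the counting used strand is not given in the sources used here. For SPTB, 33.5% of the canonical exonic bases lie opposite exons of other genes, mostly PLEKHG3, and for EPB41 10.2%, mostly TMEM200B. For EPB42 19.1% lie under a gene on the same strand. The FPKM of these members are uncertain to that extent. For GYPB, GYPC, GYPE and KEL the share was 0%, and for ANK1 it was 1.63%.

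Other genes of the red cell membrane and its regulators were read as lists, beside 58.0% of all genes higher in sh-IUR1, or 52.7% (median 0.0047) without the unnumbered sh-luc library. Of the Rh complex and associated cytosolic proteins, 10 of 11 listed genes were in the table, with 7 higher and 3 lower in sh-IUR1 and a median log2 fold change of 0.0068 (5 and 5, median 0.012, without the unnumbered sh-luc library). The most abundant was GAPDH, and CA1, a carbonic anhydrase, was the only gene there whose groups did not overlap, with 2.55 to 3.25 FPKM in sh-luc and 2.18 to 2.40 FPKM in sh-IUR1 (log2 fold change -0.22, SE 0.091, and -0.14 without that library). This is 1 of 10 genes, beside 7.07% of all genes. CA1 was also the 1 gene of this list at an unadjusted p under 0.05 in limma, beside 2.65% of all genes. Of the junctional complex and actin genes all 25 were in the table, 16 higher and 9 lower with a median of 0.016 (14 and 11, median 0.010, without it), and ACTB was the most abundant. Of the spectrin, ankyrin and EPB41 paralogs of other tissues, 8 of 13 were in the table, 6 higher and 2 lower with a median of 0.069 (5 and 3, median 0.012, without it). Among them EPB41L2 had the highest mean over the 6 libraries, at 17.1 to 18.4 FPKM, below EPB41 in every library. SPTBN1 was close to it, with the higher mean in sh-IUR1 (18.48 against 17.92 FPKM) and the lower in sh-luc (17.1 against 18.01 FPKM). The lowest SPTBN1 value, 14.65 FPKM, was in the unnumbered sh-luc library.

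Of the other blood group carriers and red cell surface proteins, 31 of 36 were in the table, 23 higher and 8 lower with a median of 0.050. Without the unnumbered sh-luc library 20 were higher and 11 lower, with a median of 0.019. BSG was the most abundant at 345 to 384 FPKM. ABCG2 (7.87 to 8.49 against 8.69 to 9.76 FPKM) and ABCC1 (13.3 to 15.4 against 15.5 to 16.3 FPKM) were higher in sh-IUR1 without overlap, with log2 fold changes of 0.13 and 0.11 (0.16 and 0.055 without that library), as was A4GALT at under 1 FPKM. These are 3 of 31 genes, beside 7.07% of all genes. At an unadjusted p under 0.05 there was 1 of 31, beside 2.65% of all genes. It was the water channel gene AQP1, lower in sh-IUR1 (4.32 to 5.67 against 3.28 to 4.57 FPKM, log2 fold change -0.28, and -0.21 without the unnumbered sh-luc library, its highest). A4GALT and AQP1 were named after their values were seen. Of the GATA1 complex and erythroid regulators, 13 of 14 were in the table, 6 higher and 7 lower with a median of -0.023 (4 and 9, median -0.034, without that library), and GATA1 measured 182 to 200 FPKM. Of the stress response genes, 18 of 19 were in the table, and all 18 were higher in sh-IUR1 with a median of 0.38. The median was 0.062, with 17 higher and 1 lower, without the unnumbered sh-luc library, where DDIT4 was at 169 FPKM against 479 to 620 FPKM elsewhere. No gene of any list was called by limma at an adjusted p under 0.05. The part of the stress genes in the values of the members was not tested.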

How the data were processed

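RNA-seq had been performed on 6 K562 libraries, 3 per group. The deposited values come from reads that the authors had cleaned and placed on the hg38 build; the aligner and the annotation are not given in the sources used here. SAMtools 0.1.19 is named in the submitters' processing notes. The methods name RPKM, while the deposited values are FPKM with 2 decimals. The lowest SD of FPKM over the 6 libraries of any gene in the table was 0.0501. Genes with a smaller SD may have been left out, so shares of all genes refer to the genes in this table. The authors' table also holds a z-score of each gene's FPKM, deposited as a score, and a cluster number (1 of 9) with a deposited fraction, the membership in that cluster, none of which entered a test. Total fragments per library were only estimated, roughly, from low values within a chosen range.

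Symbols came from RefSeq GRCh38.p14 for 12363 of 12486 genes, promoters from the same annotation, and transcripts from GENCODE release 44. FPKM were taken as log2(FPKM + 1). The 12276 genes averaging 0.1 FPKM or more entered limma 3.58.1 (lmFit, eBayes with a trend) in R 4.3.3, sh-IUR1 against sh-luc, with Benjamini-Hochberg adjustment over all of them; the step was tested on simulated data. Single genes were compared by a two-sided exact permutation test of mean FPKM (20 arrangements). Other steps ran in Python 3.11.15 with pandas 2.3.3, numpy 2.4.6, matplotlib 3.10.9 and scipy 1.17.1.

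The members and the lists were chosen with earlier results of these data known. Named genes are the members; from each list the most abundant gene and up to 3 genes with the largest change among those with at least 1 FPKM and no overlap; for each member of at least 1 FPKM the 2 genes of highest Pearson's r; and the extreme member pairs. Alternatives were a pseudocount of 0.1 FPKM, quantile normalization, median-ratio scaling, a filter at a mean of 1 FPKM or none, no trend in eBayes, a replicate block, each library left out and, added after seeing the data, a loess correction for GC content and length (span 0.5).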

Additional observations from a re-analysis of the deposited data

How the results depend on the processing

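Under 14 alternatives, 111 member fold changes were computed; 107 kept their direction and 4 reversed. Left out in turn, the libraries gave log2 fold changes of -0.080 to 0.11 for ANK1, -0.028 to 0.18 for SPTB and -0.0089 to 0.099 for EPB41, each reversed only without the unnumbered sh-luc library. ANK1 also reversed with the correction for GC content and length (-0.021), added after seeing the data. The cause was not tested. With limma, 0 genes were called under all 14 alternatives. Genes at an unadjusted p under 0.05 numbered 325, 312 with quantile normalization, 533 with the replicate block and 482 with the length correction. With a library left out they numbered 158 to 856. They were 221 without the unnumbered sh-luc library, 158 without the unnumbered sh-IUR1 library, 856 without sh-luc replicate 1 and 711 without sh-IUR1 replicate 2. Members among them numbered 0, but 1 with quantile normalization (EPB42), 1 with the replicate block (GYPB), 2 with the length correction (GYPB and EPB42) and 0 to 2 with a library left out (GYPB, EPB42 or KEL). Deviations of same-numbered libraries from their group means correlated at 0.044 (unnumbered), 0.39 (replicate 1) and -0.34 (replicate 2). With 3 libraries per group these values depend on each other, so they cannot settle whether the libraries are paired. The block changed no call at an adjusted p under 0.05. A minimum mean of 1 FPKM removed EPB42. The size of difference that 3 libraries per group could resolve was not tested.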

Other observations

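In the deposited clustering of the standardized FPKM, ANK1 and SPTB were both assigned to cluster 5, and EPB41 and KEL both to cluster 1. GYPB was in cluster 3, GYPC in cluster 6, GYPE in cluster 7 and EPB42 in cluster 9. The membership fractions ran from 0.237 for GYPE to 0.525 for SPTB. The clusters were built from the same 6 libraries as the fold changes and are no separate evidence.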
